A study of Mus musculus with 20 samples.

Results

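The Src family of tyrosine kinases was followed across 5 sorted cell populations of the neonatal mouse brain. Its members were taken by gene symbol: Src, Fyn, Yes1, Lyn, Fgr, Lck and Blk, 7 of the 45705 genes in the table. RNA came from the periventricular zone of Swiss Webster pups at postnatal day 5, each litter pooled with both sexes together, and the labels name no genetic change or drug in any group. Live cells were sorted on NG2, CD140a (encoded by Pdgfra), CD133 and CD15 into neural stem cells (NSC, CD133+ CD15+ without NG2 or CD140a) and 4 NG2+ CD133- progenitor populations. BNAP/GRP1 cells were CD140a- CD15+, GRP2/MP3 cells CD140a- CD15-, GRP3 cells CD140a+ CD15- and PFMP cells CD140a+ CD15+. Each population had 4 libraries, 1 from each of 4 batches named in the labels, 20 libraries in all. Levels are the RPKM that the authors deposited, read numbers divided by the length of the gene and the size of the library. The polyadenylated RNA was amplified before sequencing, and whether this acted alike on all genes was not tested. Levels of different genes are set side by side on the RPKM scale with that limit.

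Src family kinases sit at the inner face of the cell membrane, anchored by lipid, and pass on signals from receptors that have no kinase of their own. They are held shut when Csk, an inhibitory kinase, phosphorylates a tyrosine in their tail, and phosphatases such as those encoded by Ptpra and Ptprc open them. Src and Yes1 are widely expressed. Fyn is known in the oligodendrocyte lineage, where it acts below axonal contact and adhesion molecules in differentiation and in the local translation of myelin RNA. Lyn and Fgr serve immune receptors in microglia and other myeloid cells, Lck serves the T cell receptor, and Blk is a kinase of B cells.

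On GRCm38, the GENCODE annotation places Fyn at chr10:39368855-39565381 on the plus strand, Lyn at chr4:3678115-3813122 on the plus strand and Fgr at chr4:132974095-133001910 on the plus strand. Src lies at chr2:157418444-157471862 and Yes1 at chr5:32611171-32687057, both on the plus strand, while Lck at chr4:129548344-129573641 and Blk at chr14:63372836-63417037 are on the minus strand. Src, Fgr, Lck and Blk overlap no gene annotated on the other strand. Fyn overlaps 3 genes on the other strand, Yes1 overlaps 2 and Lyn overlaps 4, and where the counting did not use strand, reads of such partners cannot be told apart. The 4 partners of Lyn had medians between 0 and 0.976 RPKM over the 20 libraries. Their highest values were in BNAP/GRP1 of batch 4, with the snoRNA gene Gm22781 at 121 RPKM there. Within Fyn, the antisense gene Gm16365 reached 59.5 RPKM in NSC of batch 4. The pseudogene Gm6963 within Fyn reached 24.1 RPKM in PFMP of batch 2, the library with the highest Fyn.

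The RefSeq promoter table (GRCm38.p6) held 5 of the 7 members, in 6 windows; Lyn and Blk were not matched. The 250 bases before the start are shown for Fyn, the leading member in the CD140a+ populations, for Fgr, a myeloid member, and for both starts of Lck, where 1 window held each of the motifs searched. Capitals mark matches on either strand. The PU.1 core, a motif of a myeloid and B cell factor, was searched as GAGGAA. The SOX core, a motif of glial and progenitor factors, was searched as ACAAAG. The motifs do not overlap each other. Sequences run 5′ to 3′ along the strand of the gene.
Fyn, chr10:39369549-39369798, plus strand: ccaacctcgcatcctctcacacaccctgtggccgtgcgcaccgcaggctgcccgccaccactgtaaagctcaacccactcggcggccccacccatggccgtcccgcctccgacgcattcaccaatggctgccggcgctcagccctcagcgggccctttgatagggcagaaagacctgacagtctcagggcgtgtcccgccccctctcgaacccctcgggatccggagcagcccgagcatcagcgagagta
Fgr, chr4:132973845-132974094, plus strand: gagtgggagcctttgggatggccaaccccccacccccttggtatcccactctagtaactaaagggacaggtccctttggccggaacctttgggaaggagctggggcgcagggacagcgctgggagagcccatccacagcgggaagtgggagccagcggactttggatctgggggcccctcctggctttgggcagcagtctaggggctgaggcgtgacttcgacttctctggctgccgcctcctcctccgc
Lck, chr4:129573642-129573891, minus strand: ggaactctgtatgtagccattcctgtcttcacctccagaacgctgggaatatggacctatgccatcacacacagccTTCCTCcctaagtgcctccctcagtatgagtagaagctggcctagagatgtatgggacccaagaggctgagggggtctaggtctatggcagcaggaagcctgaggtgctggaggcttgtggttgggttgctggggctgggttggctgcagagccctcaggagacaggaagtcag
Lck, chr4:129558373-129558622, minus strand: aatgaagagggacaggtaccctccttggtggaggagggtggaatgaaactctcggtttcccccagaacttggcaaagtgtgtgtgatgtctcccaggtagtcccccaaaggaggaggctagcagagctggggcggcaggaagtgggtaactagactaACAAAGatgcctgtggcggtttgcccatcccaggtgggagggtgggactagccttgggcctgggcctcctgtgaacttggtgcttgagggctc
The windows of Fyn, Fgr and Yes1 held neither motif. The window of Src and the outer window of Lck held the PU.1 core at 1 place each, and the inner window of Lck held the SOX core at 1 place. Of the 32851 windows in the table, 23.3% held the PU.1 core and 16.5% the SOX core on either strand.

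The 5 libraries of batch 3 stood apart from the other 15 and are described before the results. Any 2 of them had a correlation of at least 0.940 on the log2(RPKM + 1) scale over all genes, against a median of 0.795 between libraries of the same batch elsewhere. In batch 3, the library labelled GRP3 had 3.41 RPKM of Pdgfra and the library labelled PFMP had 3.84, although both were sorted on CD140a. Cspg4, which encodes NG2, was at 0.0362 to 0.398 RPKM in batch 3, and outside it at 4.70 to 146 RPKM in GRP3 and PFMP, 5.91 to 9.64 in GRP2/MP3 and 0.249, 0.844 and 8.49 in BNAP/GRP1, a population sorted on NG2. All 5 had Csf1r, the microglial growth factor receptor, at 78.7 to 90.6 RPKM. The summed level of 6 alveolar macrophage markers was 876 to 1013 RPKM in batch 3 and at most 134 elsewhere. The sum of 5 B and plasma cell markers was 402 to 436 RPKM against at most 46.9, and that of 5 T cell markers 91.4 to 118 against at most 38.7. In batches 1, 2 and 4, 12 markers of oligodendrocyte progenitor cells (OPC) summed to 479 to 3931 RPKM in GRP3 and PFMP and to 26.5 to 242 in BNAP/GRP1 and GRP2/MP3. There, 12 microglial and macrophage markers summed to 4006 to 15099 RPKM in BNAP/GRP1 and GRP2/MP3 of batches 1 and 2, to 152 and 943 in those populations of batch 4, and to 23.0 to 164 in GRP3 and PFMP. NSC held 2335 to 12795 RPKM of 6 ependymal markers in those batches. In batch 3 the NSC library held 1175 RPKM of them, against 4.37 to 6.11 RPKM in the other 4 libraries, so it kept that mark of its population. BNAP/GRP1 of batch 4 had the lowest estimated depth, 0.0395 of that of BNAP/GRP1 of batch 1, with 1.71% of the genes compared at that ratio. Yet it had 38191 genes above 0, against 31999 in BNAP/GRP1 of batch 1, and what sets it apart was not tested. In this library the 6 genes used by every cell summed to 1541 RPKM, against at least 6709 in the other libraries. Its median over all genes was 8.30 RPKM, against at most 2.02 in the other libraries.

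**Figure D1:**
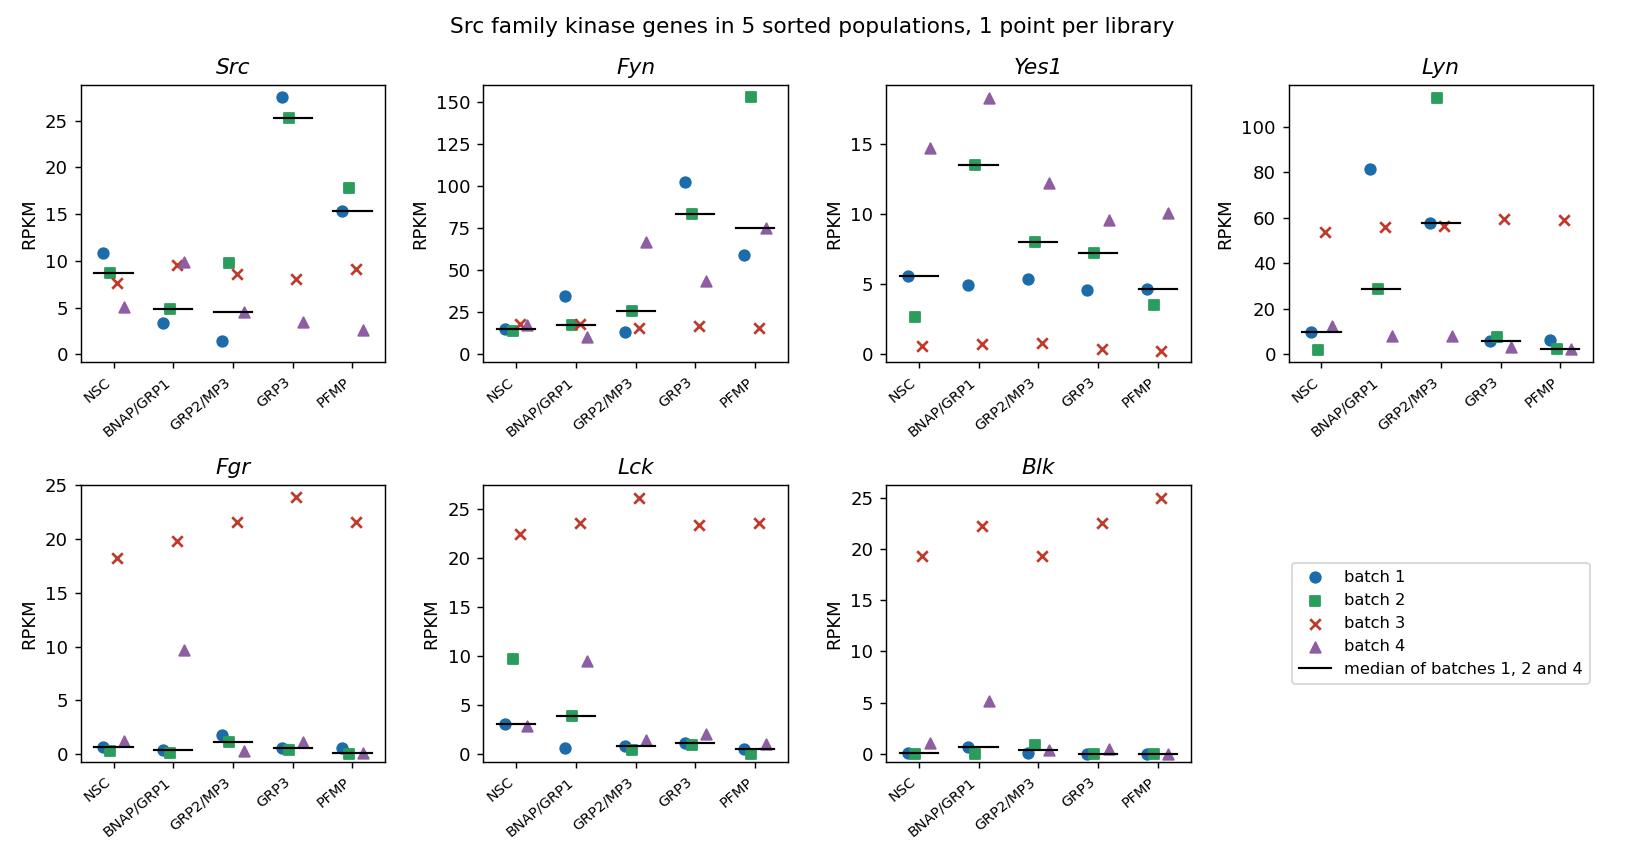
Levels of the 7 Src family kinase genes (RPKM, linear axes that differ between panels) in the 5 populations, with 1 point for each library, colored by batch, and a line at the median of batches 1, 2 and 4. Fyn was at 43.5 RPKM or more in the 6 GRP3 and PFMP libraries outside batch 3, and the batch 3 libraries (crosses) held Fgr, Lck and Blk at 18.2 to 26.2 RPKM in every population.

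Fyn had the highest level in GRP3 and PFMP. In GRP3, Fyn was at 103, 83.3 and 43.5 RPKM in batches 1, 2 and 4 and at 16.8 RPKM in batch 3. In PFMP, it was at 58.9, 153 and 74.9 RPKM in batches 1, 2 and 4 and at 15.3 RPKM in batch 3. Outside batch 3 both populations stayed above every NSC library, and their own ranges overlapped. In NSC, Fyn was at 14.8, 13.9, 17.7 and 17.2 RPKM in batches 1 to 4, the narrowest spread of the 5 populations (15.9 ± 1.84, SD, n = 4). In BNAP/GRP1 it was at 34.6, 17.4, 18.0 and 10.05 RPKM, and in GRP2/MP3 at 13.5, 25.5, 15.6 and 66.9 RPKM. The 66.9 RPKM of GRP2/MP3 in batch 4 lay within the range of GRP3 and PFMP, so the CD140a+ and CD140a- libraries overlapped in that batch and were apart in batches 1 and 2. That GRP2/MP3 library also held sums of 562 RPKM for 6 neuroblast markers, 597 for 6 oligodendrocyte markers, 7332 for 6 pericyte markers, 242 for the OPC markers, 6932 for 7 NSC and astroglia markers and 530 for the ependymal markers, the highest of the 6 BNAP/GRP1 and GRP2/MP3 libraries outside batch 3 for each; their part in its Fyn level was not tested. By the medians of batches 1, 2 and 4, the order was GRP3 (83.3 RPKM), PFMP (74.9), GRP2/MP3 (25.5), BNAP/GRP1 (17.4) and NSC (14.8). Of these neighbors, GRP3 and PFMP overlapped, as did PFMP with GRP2/MP3, GRP2/MP3 with BNAP/GRP1 and BNAP/GRP1 with NSC. In sorted bulk RNA, fewer cells of a type and less RNA per cell cannot be told apart.

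Lyn ran the other way between the CD140a gates. In GRP2/MP3, Lyn was at 57.7, 113 and 8.21 RPKM in batches 1, 2 and 4, and in BNAP/GRP1 at 81.6, 28.6 and 8.26 RPKM. In GRP3 it was at 5.96, 7.58 and 3.31 RPKM and in PFMP at 6.36, 2.17 and 2.32 RPKM. Outside batch 3, every BNAP/GRP1 and GRP2/MP3 library was above every GRP3 and PFMP library. The closest were GRP2/MP3 of batch 4 at 8.21 RPKM and GRP3 of batch 2 at 7.58 RPKM. The 8.26 RPKM of BNAP/GRP1 in batch 4 was no higher than the median gene of that library, 8.30 RPKM. NSC had 9.96, 1.89 and 12.6 RPKM in those batches and overlapped both sides. In batch 3, Lyn was at 53.9 to 59.3 RPKM in all 5 populations. The 4 highest values of Lyn outside batch 3 were in the 4 libraries with the highest sums of microglial and macrophage markers, and the part of those cells in the Lyn level was not tested.

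Src and Yes1, the widely expressed members, were lower than Fyn in most libraries. Src was at 27.5 and 25.3 RPKM in GRP3 of batches 1 and 2 and at 15.3 and 17.8 RPKM in PFMP. In batches 1 and 2, BNAP/GRP1 had 3.34 and 4.88 RPKM of Src and GRP2/MP3 had 1.45 and 9.73 RPKM. These libraries did not overlap in batches 1 and 2, but the order turned in batch 4, where GRP3 and PFMP were at 3.42 and 2.63 RPKM and BNAP/GRP1 and GRP2/MP3 at 9.92 and 4.51. NSC had 10.9, 8.66 and 5.04 RPKM of Src in batches 1, 2 and 4, and batch 3 had 7.63 to 9.52 RPKM in all populations. Yes1 was the member with the largest drop in batch 3, at 0.251 to 0.811 RPKM there and 2.68 to 18.3 RPKM elsewhere. Within each of the 4 batches, GRP3 and PFMP were both below BNAP/GRP1 and GRP2/MP3 in Yes1, in batch 1 by 0.13 on the log2(RPKM + 1) scale and in batch 2 by 0.91. In batch 4, GRP3 and PFMP had 9.58 and 10.1 RPKM of Yes1, while NSC, BNAP/GRP1 and GRP2/MP3 had 14.7, 18.3 and 12.2.

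Fgr, Lck and Blk, the myeloid and lymphoid members, were low outside batch 3. Fgr was at 0.0404 to 1.74 RPKM in 14 of the 15 libraries of batches 1, 2 and 4 and at 9.70 RPKM in BNAP/GRP1 of batch 4. In batch 3 it was at 18.2 RPKM in the NSC library, 19.8 in that labelled BNAP/GRP1 and 21.6 in that labelled GRP2/MP3; the GRP3 and PFMP libraries had 23.9 and 21.5. Fgr was low where Lyn was high outside batch 3: in GRP2/MP3 of batches 1 and 2, Fgr was at 1.74 and 1.09 RPKM beside 57.7 and 113 RPKM of Lyn. Lck was at 3.11, 9.70 and 2.91 RPKM in NSC of batches 1, 2 and 4, above GRP2/MP3 (0.835, 0.401 and 1.40 RPKM), GRP3 (1.10, 0.970 and 2.08) and PFMP (0.531, 0 and 1.07) in each batch. BNAP/GRP1 had 0.635, 3.91 and 9.49 RPKM of Lck, and batch 3 had 22.4 to 26.2 RPKM in all populations. Blk was listed at 0 in the 3 PFMP libraries of batches 1, 2 and 4, in GRP3 of batch 1 and in NSC of batch 2, and was at 19.3 to 25.0 RPKM in batch 3. Its highest value elsewhere was 5.15 RPKM, in BNAP/GRP1 of batch 4. That library thus held the highest values of Fgr and Blk outside batch 3, together with the highest T cell and B and plasma cell marker sums there, 38.7 and 46.9 RPKM. The part of its low estimated depth or of such cells in those levels was not tested. Its Fgr, Lck and Blk, at 9.70, 9.49 and 5.15 RPKM, lay near its median gene of 8.30 RPKM. The T cell sum and the B and plasma cell sum are of 5 genes each, and are to be read against that median too.

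The make-up of Src family RNA was compared within libraries as each member's share of their summed RPKM. Outside batch 3, Fyn had the highest share in 10 of 15 libraries, Lyn in 4 and Yes1 in 1. Fyn made up 66.7% to 86.7% of the sum in the 6 GRP3 and PFMP libraries and 31.4% to 37.5% in the 3 NSC libraries. Lyn made up 64.7% and 41.9% in BNAP/GRP1 of batches 1 and 2 and 71.6% and 71.2% in GRP2/MP3. The ratio of Fyn to Lyn was 9.26 to 70.4 in GRP3 and PFMP outside batch 3, 1.36 to 7.39 in NSC, and 0.226 to 0.607 in BNAP/GRP1 and GRP2/MP3 of batches 1 and 2. In batch 4 it was 1.22 in BNAP/GRP1 and 8.15 in GRP2/MP3. The batch 3 libraries had Lyn first in all 5, at 37.3% to 38.5%, and Fyn at 9.97% to 12.7%.

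**Figure D2:**
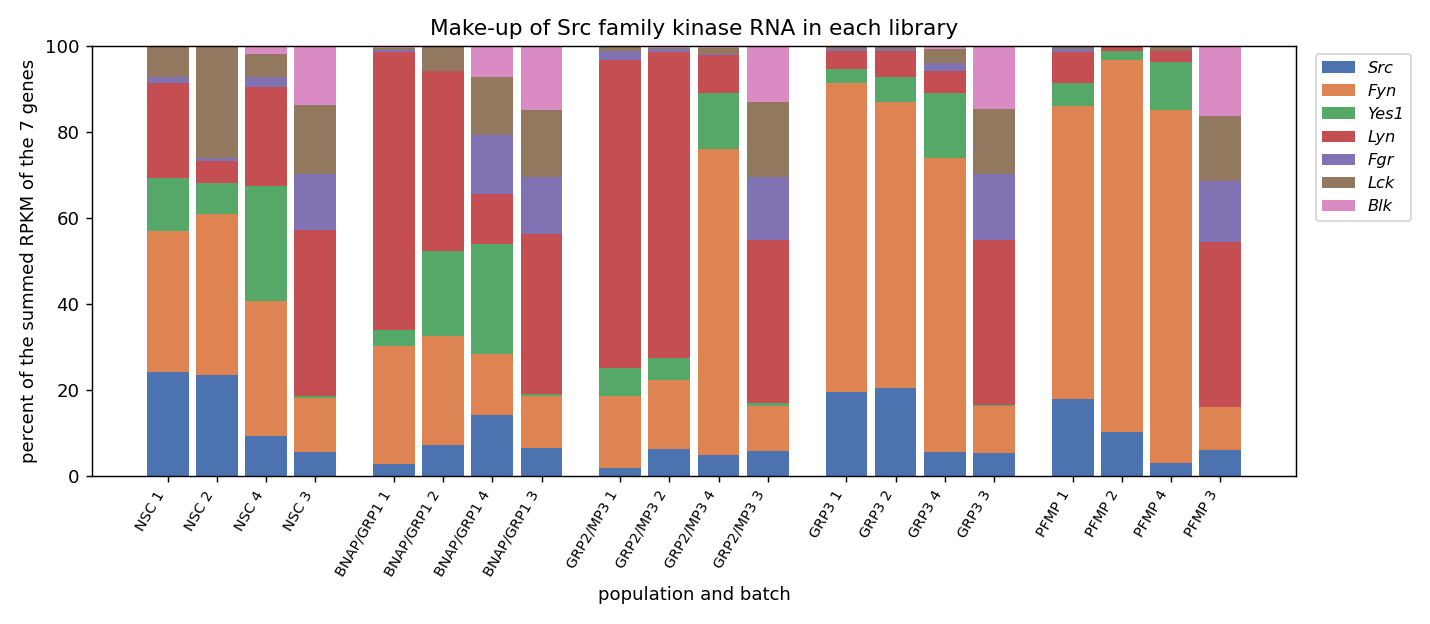
Share of each member in the summed RPKM of the 7 Src family kinase genes (percent, stacked to 100), with 1 bar for each library, grouped by population and with batch 3 last in each group. Fyn took 66.7% or more in GRP3 and PFMP outside batch 3, Lyn led in BNAP/GRP1 and GRP2/MP3 of batches 1 and 2, and the 5 bars of batch 3 resemble each other.

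The comparison of GRP3 and PFMP with BNAP/GRP1 and GRP2/MP3 asked whether the CD140a gate separates the members. It was fitted with limma on log2(RPKM + 1) over the 27614 genes that reached 1 RPKM in 4 or more of the 20 libraries, a filter that all 7 members passed, and p-values were adjusted over all genes. With all 20 libraries, none of the 7 members passed an adjusted p of 0.05 and none of the 27614 genes did (0% called); at an unadjusted p under 0.05 there were 446 higher and 773 lower genes, Fyn and Lyn among them. Fyn was higher in GRP3 and PFMP by 1.30 ± 0.49 (SE) on the log2 scale (limma adjusted p = 0.894) and Lyn fell by 1.99 ± 0.77 (limma adjusted p = 0.895). The other estimates were 0.80 ± 0.48 for Src, -0.51 ± 0.65 for Yes1, -0.44 ± 0.90 for Fgr, -0.48 ± 0.81 for Lck and -0.48 ± 0.95 for Blk, with limma adjusted p between 0.895 and 0.910. The median over all genes was -0.22 and that of the 7 members -0.48. With the batch as a replicate block, 398 genes were called (1.44%) and none of the 7 members, with limma adjusted p = 0.0669 for Lyn and 0.155 for Fyn.

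Without batch 3, 6 of the 7 members were tested, since Blk fell below the filter. Lyn was then called lower in GRP3 and PFMP, by -2.68 ± 0.68 (limma adjusted p = 0.0489), 1 of 6 members beside 2.23% of 26663 genes. Fyn was at 1.75 ± 0.49 (limma adjusted p = 0.0873). With the replicate block as well, Lyn passed at a limma adjusted p of 0.0195 and Fyn was at 0.0651, beside 3.2% of genes called. In batches 1 and 2 alone, where 5 members were tested and 12.6% of 16195 genes were called, 3 members were called: Fyn at 2.08 ± 0.47 (limma adjusted p = 0.0228), Src at 2.11 ± 0.50 (limma adjusted p = 0.0270) and Lyn at -3.38 ± 0.60 (limma adjusted p = 0.00768). Batch 4, where Src gave -0.95 and the libraries overlapped in Fyn, is left out there. The same 3 passed with the replicate block added, a fit chosen after seeing the data. Their limma adjusted p were then 0.0471, 0.0430 and 0.0123, beside 9.62% of genes called. Yes1 and Lck were tested and not called in these fits, nor was Fgr where tested.

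By batch, Fyn was higher in GRP3 and PFMP by 1.80, 2.37 and 1.08 on the log2 scale in batches 1, 2 and 4 and by -0.06 in batch 3. Lyn gave -3.28, -3.48 and -1.29 in batches 1, 2 and 4 and 0.07 in batch 3. Src gave 2.73 and 1.49 in batches 1 and 2, -0.07 in batch 3 and -0.95 in batch 4. Thus Fyn and Lyn kept 1 direction in 3 of 4 batches, and Src turned between batches 1 and 2 and batch 4.

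**Figure D3:**
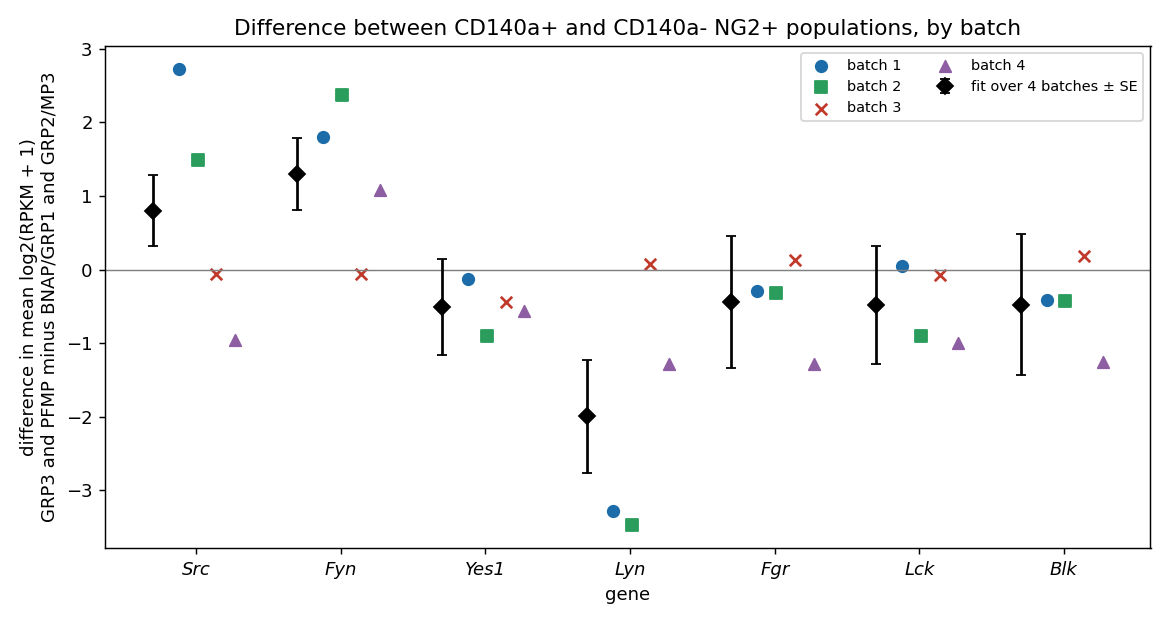
Difference in mean log2(RPKM + 1) between GRP3 and PFMP and BNAP/GRP1 and GRP2/MP3 for each member, with 1 colored point for each batch and a black diamond with its SE for the fit over all 4 batches. Fyn was above 0 and Lyn below 0 in batches 1, 2 and 4, Src was at -0.95 in batch 4, and batch 3 (crosses) was between -0.08 and 0.19 for 6 of the 7 members and at -0.44 for Yes1.

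Each progenitor population was also compared with NSC, the stem cell population sorted without NG2. The 4 comparisons share their NSC libraries. With all 20 libraries, none of the 7 members was called in any of them, beside 0.76% of genes called in BNAP/GRP1 and 1.12% in GRP2/MP3; GRP3 had 1.05% and PFMP 1.14%. At an unadjusted p under 0.05 limma gave 0 members for BNAP/GRP1 and GRP2/MP3 and 1 member, Fyn, for each of GRP3 and PFMP. Over all 27614 genes, 517 were higher and 1112 lower at that p in BNAP/GRP1, and 241 and 1359 in GRP2/MP3. In GRP3, 348 were higher and 1204 lower, and in PFMP 219 and 1404. Fyn differed from NSC by 1.61 ± 0.69 (SE) in GRP3 (limma adjusted p = 0.704) and by 1.79 ± 0.69 in PFMP (limma adjusted p = 0.489). It differed by 0.61 ± 0.69 in GRP2/MP3 and by 0.19 ± 0.69 in BNAP/GRP1. Without batch 3 the values were 2.17 ± 0.70 for GRP3 (limma adjusted p = 0.180) and 2.45 ± 0.70 for PFMP (limma adjusted p = 0.102). The paper places Fyn in a network drawn from genes that its own DESeq2 test gave as higher in PFMP than in NSC. That test was not rerun here. Lyn differed from NSC by 1.44 ± 1.09 in BNAP/GRP1 and 1.81 ± 1.09 in GRP2/MP3, and by -0.15 ± 1.09 in GRP3 and -0.59 ± 1.09 in PFMP. Without NSC of batch 2 the first pair fell to 0.74 and 1.11. Without batch 3 the 4 values were 1.91, 2.39, -0.25 and -0.82, each ± 0.96, and none was called. In batches 1 and 2 alone, Lyn in GRP2/MP3 was the 1 member of 5 called, at 3.86 ± 0.84 (limma adjusted p = 0.0290), beside 6.88% of genes. With the replicate block it was called there at a limma adjusted p of 0.0408, beside 5.04% of genes. By batch, Fyn was above NSC in GRP3 by 2.71, 2.50 and 1.29 and in PFMP by 1.92, 3.37 and 2.06 on the log2 scale in batches 1, 2 and 4, while batch 3 gave -0.08 and -0.20.

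The genes around the kinases were counted in the CD140a comparison without batch 3, since with all 20 libraries no gene passed; the list medians there were -2.44 for the myeloid receptor genes, 0.23 for the Fyn partners, -0.40 for the activators and inhibitors, -0.41 and -0.67 for the T and B cell receptor genes and -0.34 for the other kinases. In that fit 0.724% of all genes were called higher and 1.5% lower in GRP3 and PFMP, and the median over all genes was -0.29. Genes named here as called, other than Csf1r and Tyrobp and the most abundant genes of each list, were chosen after their values had been seen. Of 20 genes that act beside Lyn and Fgr at myeloid immune receptors, 14 were called lower and 0 higher, with a median of -3.23. Tyrobp, the adaptor that recruits Syk, ran from 16.0 to 6797 RPKM in BNAP/GRP1 and GRP2/MP3 and from 3.70 to 12.1 RPKM in GRP3 and PFMP, and fell by 6.34 (limma adjusted p = 0.00682). Fcer1g, the gamma chain of Fc receptors, ran from 25.4 to 6018 RPKM against 3.68 to 40.2, and fell by 6.17 (limma adjusted p = 0.00684). Csf1r fell by 3.71 (limma adjusted p = 0.00813). Frk, a more distant relative of the Src kinases, was at -1.04 (limma adjusted p = 0.534).

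Of 19 partners and substrates of Fyn, 2 were called higher and 1 lower, with a median of 0.36. Cntn1, the adhesion molecule contactin that signals through Fyn, was at 102 to 533 RPKM in GRP3 and PFMP and at 1.86 to 29.2 in BNAP/GRP1 and GRP2/MP3, a difference of 4.38 (limma adjusted p = 0.00465). Dab1, the reelin adaptor that Fyn phosphorylates, was at 20.01 to 39.1 RPKM against 2.605 to 20.3, a difference of 1.82 (limma adjusted p = 0.0469). Itga6, the laminin receptor subunit, was lower, at 3.11 to 12.2 RPKM against 14.2 to 186, a difference of -2.91 (limma adjusted p = 0.0131). The most abundant of the list, Hnrnpa2b1, which carries Mbp RNA, and Ncam1, a neural adhesion molecule, were at 0.87 and 2.37 with limma adjusted p of 0.790 and 0.224. Mbp, which encodes myelin basic protein, was at 10.3 to 93.6 RPKM in GRP3 and PFMP and 2.33 to 51.0 RPKM in BNAP/GRP1 and GRP2/MP3.

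Of 17 activators and inhibitors of the family, 1 was called higher and 3 lower, with a median of -0.56. Ptpre, a receptor phosphatase that activates Src kinases, was at 15.03 to 61.4 RPKM in GRP3 and PFMP against 2.75 to 10.52 RPKM, a difference of 1.87 (limma adjusted p = 0.0405). Ptprc, the phosphatase CD45 of blood cells, was at -3.09 (limma adjusted p = 0.0122), Ptpn6, the phosphatase of inhibitory immune receptors, at -3.57 (limma adjusted p = 0.00641) and Sla, an adaptor that damps antigen receptor signaling, at -2.86 (limma adjusted p = 0.015). Ptpn1 was at -0.19 (limma adjusted p = 0.871). Csk, the shared inhibitor, was at -0.38 (limma adjusted p = 0.792), with 6.40 to 22.9 RPKM in GRP3 and PFMP and 9.62 to 21.7 RPKM in BNAP/GRP1 and GRP2/MP3.

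Of the 12 genes beside Lck at the T cell receptor, 8 passed the filter without batch 3 and 1, the costimulatory receptor Cd28, was called lower, by -2.75 (limma adjusted p = 0.00956); the median was -0.76. Cd2, the most abundant of them, was at 63.7 to 85.6 RPKM in batch 3 and at most 9.12 RPKM elsewhere. Of the 10 genes beside Blk at the B cell receptor, 9 passed the filter and 2 were called lower, Cd79b at -3.53 (limma adjusted p = 0.00487) and the adaptor Blnk at -3.34 (limma adjusted p = 0.00454); the median was -1.16. Ms4a1, which encodes CD20, was not called, at -1.16 (limma adjusted p = 0.537). Of 13 other cytoplasmic tyrosine kinases, Fes and Tec, kinases of blood cells, were called lower, at -2.42 (limma adjusted p = 0.0204) and -2.44 (limma adjusted p = 0.0248), and 0 were called higher; the median was -0.45. Jak1 and Ptk2b were the most abundant of them, at -0.53 (limma adjusted p = 0.779) and -1.23 (limma adjusted p = 0.470).

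The genes most alike to Fyn, Lyn and Fgr were named by the correlation of log2(RPKM + 1) over the 20 libraries after each batch's mean was taken out. These values describe the libraries, which share batches and sorts, and carry no p-value. The 5 genes nearest to Fyn were Tubb4a (r = 0.946), Nop56 (0.940), Bcas1 (0.937), Enc1 (0.935) and Clcn4-2 (0.931). Bcas1 marks early oligodendrocytes and Tubb4a encodes a tubulin of oligodendrocytes and neurons. Outside batch 3, Bcas1 was at 39.0 to 179 RPKM in GRP3 and PFMP and at 2.47 to 13.5 in NSC. It was at 7.76 to 33.4 RPKM in BNAP/GRP1 and at 7.04, 11.2 and 66.7 RPKM in GRP2/MP3 of batches 1, 2 and 4, so the CD140a+ and CD140a- ranges overlapped. The 5 genes nearest to Lyn were P2ry13 (0.959), 4632428N05Rik (0.959), Pmaip1 (0.958), Rgs2 (0.954) and Itgam (0.953). P2ry13 is a nucleotide receptor of microglia and Itgam encodes the integrin CD11b. The 5 genes nearest to Fgr were Hist1h2ba (0.963), Mmp8 (0.960), Ccr7 (0.955), G630030J09Rik (0.954) and Pilrb2 (0.954). In batches 1, 2 and 4 all 5 had their highest value in BNAP/GRP1 of batch 4, the library with the lowest estimated depth, with Hist1h2ba at 25.6 RPKM and Pilrb2 at 44.6 RPKM there. Without batch 3, over 15 libraries, Mapt (0.954) and Eid1 (0.942) took the places of Enc1 and Clcn4-2 beside Fyn, and the 5 genes of Lyn stayed. Beside Fgr, Gm9733 (0.964), 1700051O22Rik (0.964) and Aoah (0.963) took the places of Ccr7, G630030J09Rik and Pilrb2. Among the members over all 20 libraries, Fyn had r = 0.42 with Src, -0.37 with Yes1, -0.44 with Lyn, -0.51 with Blk, -0.57 with Fgr and -0.74 with Lck. Lyn had 0.62 with Yes1, 0.47 with Blk, 0.30 with Fgr, -0.13 with Lck and -0.51 with Src, and Fgr had 0.86 with Blk. With batch means left in, the sign turned for Lyn with Yes1 (-0.44), Lyn with Lck (0.39) and Fyn with Yes1 (0.22), and the other pairs named kept theirs.

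**Figure D4:**
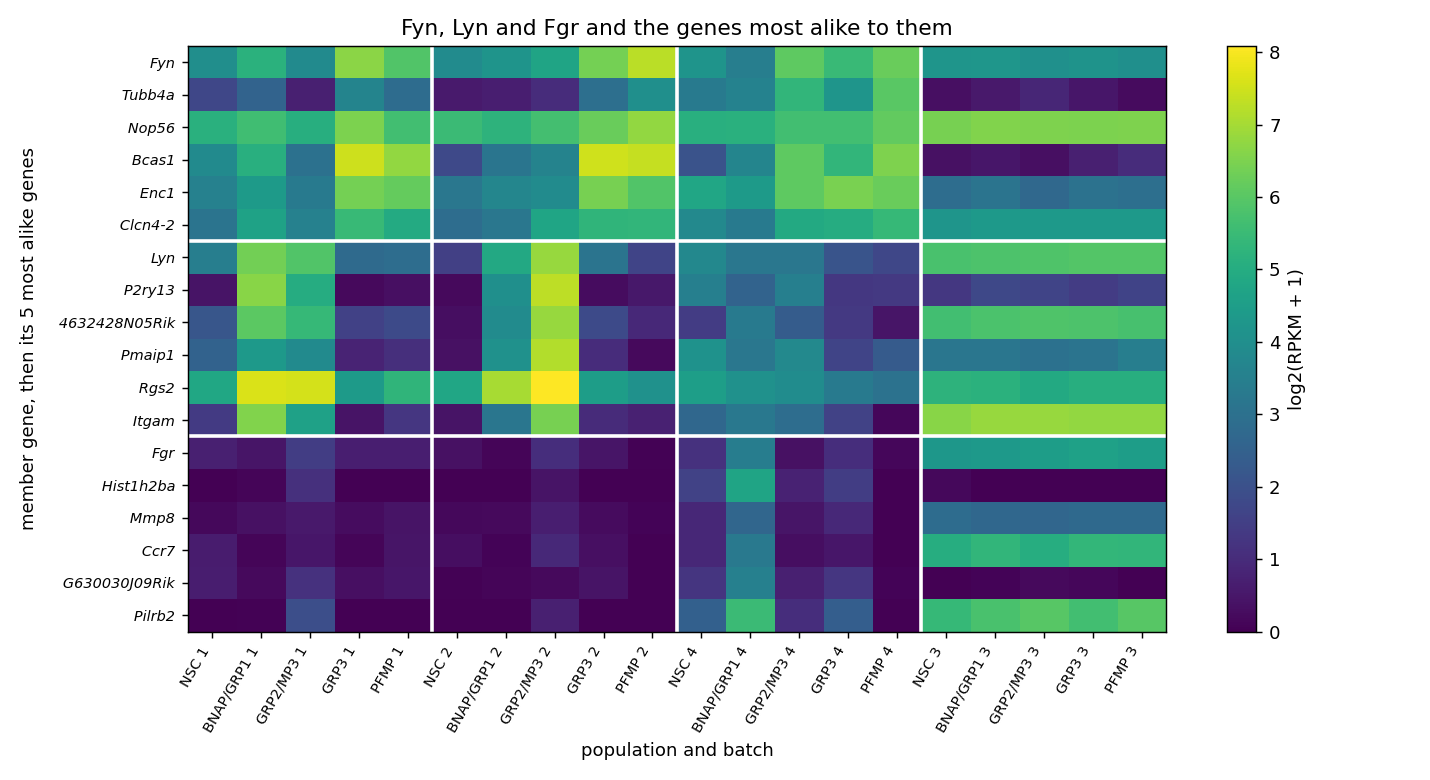
Levels as log2(RPKM + 1), by color, of Fyn, Lyn and Fgr and the 5 genes most alike to each (rows) in the 20 libraries (columns, by batch and then population, with batch 3 last). Bcas1 follows Fyn in GRP3 and PFMP, P2ry13 follows Lyn in BNAP/GRP1 and GRP2/MP3 of batches 1 and 2, and the genes nearest to Fgr are high in BNAP/GRP1 of batch 4.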

How the data were processed

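RNA of 20 libraries, 4 of each population, was measured by sequencing. As the paper's methods and the submitters' processing notes give it, the tools were FastQC 0.11.9 for read quality, cutadapt 3.4 for trimming, STAR 2.6.1 for alignment on GRCm38, Salmon 1.9.0 for abundance and DESeq2 1.26.0 for the study's own tests. The authors deposited the values as RPKM; the gene lengths, read totals and annotation release behind them are not given in the sources used here, nor is the strand setting. The study left out 2 experiments for quality, which are not analysed here. The table's 26 unnamed columns held no values. Depth was estimated relative to BNAP/GRP1 of batch 1 as the commonest ratio between the low values of 2 libraries (0.0395 to 1.41), and in the other libraries 0.937% to 4.13% of the genes compared stood at that ratio. Count tests were not run, and precision rests on the 4 libraries of each population.

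Values were taken as log2(RPKM + 1), so differences understate the change of low genes. Genes that reached 1 RPKM in 4 or more libraries of a fit were tested with limma 3.58.1 in R 4.3.3 (lmFit and trended eBayes). The model had a mean per population over all 5 populations and no batch term. The Benjamini-Hochberg method was applied over all genes tested, with 0.05 as the threshold. The labels give no animals behind the libraries beyond the batch. Deviations from the population means correlated within batches at 0.034 to 0.887 over the 40 combinations of libraries, and between batches with a median of -0.25; the batch number of the labels was therefore also fitted as a replicate block. The fit was tested on simulated data with the spread of the libraries outside batch 3. That test does not cover a batch that stands apart as batch 3 does. Alternatives were a pseudocount of 0.1, other filters, scalings and priors, and leaving out libraries or batches. Figures used matplotlib 3.10.9.

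The members, lists and markers were chosen with earlier results of these data known, and no value is independent support for a pattern seen before. Named were the 7 members, the 5 genes most alike to Fyn, Lyn and Fgr, for each list the genes past the threshold with all libraries (at most 4) or otherwise its 2 most abundant genes, and Pdgfra, Cspg4, Csf1r and Tyrobp. Other genes were named after their values had been seen. Protein sequences were not used here, and 1 list of related kinases is not reported here as a count.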

Additional observations from a re-analysis of the deposited data

Results flagged for a closer look

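In each population, the 4 libraries were looked at for a value far from the other 3, and 13 values stood out over 35 groups (7 members in 5 populations); chance gives about 1 in 20 groups. All 13 were in batch 3 and all were high. Lyn stood out in the libraries labelled GRP3 (59.3 RPKM) and PFMP (59.1 RPKM). Fgr stood out in those labelled NSC (18.2 RPKM), GRP2/MP3 (21.6 RPKM), GRP3 (23.9 RPKM) and PFMP (21.5 RPKM). Lck stood out in those labelled GRP2/MP3 (26.2 RPKM), GRP3 (23.3 RPKM) and PFMP (23.5 RPKM). Blk stood out in those labelled NSC (19.3 RPKM), GRP2/MP3 (19.3 RPKM), GRP3 (22.5 RPKM) and PFMP (25.0 RPKM). The immune marker sums of batch 3 are given in the report beside these levels, and their part in them was not tested.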

How the results depend on the processing

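Among alternative values of the 7 members in the CD140a comparison and of Fyn and Lyn against NSC, 371 kept their direction and side of the threshold, 14 changed sign and 10 passed the threshold that they missed with all libraries. In the CD140a comparison, 0 members were called with all libraries and with the replicate block, 1 without batch 3 and 1 without batch 3 with the block. In batches 1 and 2 alone 3 were called, and 3 with the block. In GRP2/MP3 against NSC, batches 1 and 2 alone called 1, and 1 with the block. Fyn in BNAP/GRP1 against NSC turned to -0.17 under quantile normalization and -0.13 without batch 1. Lyn in GRP3 against NSC turned to 0.016 without batch 1, 0.35 without batch 4 and 0.46 in batches 1 and 2, with or without the block. With single libraries left out, the CD140a differences ran from -0.97 to 0.00080 for Fgr, -0.99 to 0.0048 for Lck and -1.06 to 0.0082 for Blk, each turning without GRP2/MP3 of batch 3. Against NSC they ran from -0.10 to 0.46 for Fyn in BNAP/GRP1, -0.96 to 0.56 for Lyn in GRP3 and -1.54 to 0.13 for Lyn in PFMP. Yes1 in the CD140a comparison ran from -0.86 without BNAP/GRP1 of batch 3 to -0.19 without GRP3 of batch 3, and Lyn against NSC from 0.74 to 2.16 in BNAP/GRP1 and 1.11 to 2.55 in GRP2/MP3. Of the 15 genes most alike to Fyn, Lyn and Fgr, 2 stayed when batch means were left in. For the other 5 members against NSC, 0 were called in 272 values and 13 of 20 differences turned at least once. Those 272 values do not include the fits with single libraries left out. In such fits Blk in BNAP/GRP1 also turned, to -0.25, and Fgr in GRP2/MP3, to -0.67. The causes were not tested. Blk without batch 3, and Fgr and Blk in batches 1 and 2, gave no value since they fell below the filter.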
